A study of Mus musculus with 6 samples.

Results

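Ligand-gated ion channel receptors are membrane proteins that open a pore when a transmitter binds, and so turn a chemical signal into a current. GABA-A and glycine receptors pass chloride, while AMPA, kainate and NMDA glutamate receptors, nicotinic acetylcholine receptors and the serotonin 5-HT3 receptor pass cations. Glutamate receptors are assembled from 4 subunits and the others from 5, so the subunit genes a cell expresses set which channels it can build. Such channels are best known from neurons and muscle, and nicotinic, GABA-A and other transmitter receptors are also found in neuroendocrine cells of the lung.

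The subunit genes were chosen by their symbols in the array's platform annotation (the Gabr, Glra and Glrb, Gria, Grik, Grin, Chrn and Htr3 families), with the brightest probe set that carries a single symbol taken for each gene. This gave 54 of the 22180 genes measured, of which 16 encode GABA-A, 5 glycine, 4 AMPA, 5 kainate, 6 NMDA, 16 nicotinic and 2 5-HT3 receptor subunits. The cells were KP1, a line of small cell lung cancer derived from mice that lack Rb, p53 and p130, a background that both groups share. Controls (3 arrays) carried an empty vector that expresses GFP, and N1ICD samples (3 arrays) carried a vector for the Notch1 intracellular domain together with GFP through an internal ribosome entry site. GFP-positive cells were sorted 48 hours after transfection, and each sample was hybridised to 1 Mouse Gene 2.0 ST array. KP1 is a single line, and the cells were transfected transiently, so the data describe an early response in that line. The samples are labelled biological replicates, with no statement of separate cultures.

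Values are log2 expression after RMA, the authors' normalization, and differences are N1ICD minus control. A gene is said to rise or fall where limma's adjusted p over all genes was under 0.05. Precision is limited by having 3 arrays per group. In bulk RNA, fewer cells with a transcript and less transcript per cell cannot be told apart.

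The arrays' medians over genes lay between 6.14 and 6.24. Notch1 rose 3.01-fold, and Hes1, Hes5, Hey1, Heyl and Nrarp rose in all N1ICD arrays, by 1.92 to 5.11 on the log2 scale. The vector carries part of Notch1, and whether the Notch1 probe set read the vector or the cells' own gene was not tested. The 9 neuroendocrine markers measured were all brighter than the 95th percentile of 1105 olfactory receptor genes (5.57), which are rarely transcribed outside the nose and served as a guide to dim signal. Their mean level was 9.65 to 9.75 in control and 9.39 to 9.55 in N1ICD arrays. Among them Dll3 (-1.43), Insm1 (-0.89) and Epcam (-0.74) fell, Chga (0.64) and Ncam1 (0.53) rose, and 4 did not pass the test. Of 5 macrophage markers, 4 lay at or below that level (list mean 4.91 to 4.97 in control and 4.92 to 5.02 in N1ICD), as did 3 of 5 endothelial markers (5.11 to 5.28 and 5.82 to 5.95) and 2 of 5 fibroblast markers (5.92 to 6.02 and 5.64 to 5.71). The endothelial receptor Kdr rose by 3.04, the macrophage lysozyme Lyz2 rose by 0.52 and the fibroblast receptor Pdgfra fell by 0.74. Both group means of Lyz2 (4.06 in control and 4.59 in N1ICD) lay below the olfactory level. The 5 markers of mature neurons measured 8.71 to 9.39 on average in control and 8.54 to 9.32 in N1ICD arrays, and none was called. The part of these cell types in the results below was not tested.

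Of the 54 subunit genes, 4 rose and 3 fell, while 47 missed the threshold, which is 13.0% called against 7.10% of all genes (3.82% higher and 3.27% lower). The rises were the glutamate receptor genes Gria1, Grik3 and Grin2a and the GABA-A gene Gabra2. The falls were the serotonin receptor gene Htr3a, the GABA-A gene Gabra5 and the nicotinic gene Chrnd. The median difference was -0.03 over the subunit genes and -0.02 over all genes, with 24 subunit genes higher and 30 lower on average. The groups did not overlap for 16 of the 54, 8 higher and 8 lower, or 29.6% against 26.1% of all genes (11.1% higher and 15.0% lower). Of the 54, 26 had a mean over the 6 arrays above the olfactory level, and the 7 called genes were all among those. That mean includes the group in which a gene is higher. Chrnd, with an N1ICD mean of 5.31, passed the level of 5.57 only through its control arrays (mean 6.21). Of all genes above that level, 10.8% were called. With each array left out in turn, the rises numbered 2 or 3 (2 on leaving out any of control replicates 2 and 3 and N1ICD replicates 2 and 3) and the falls 1 to 4 (1 without N1ICD replicate 2).

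**Figure D1:**
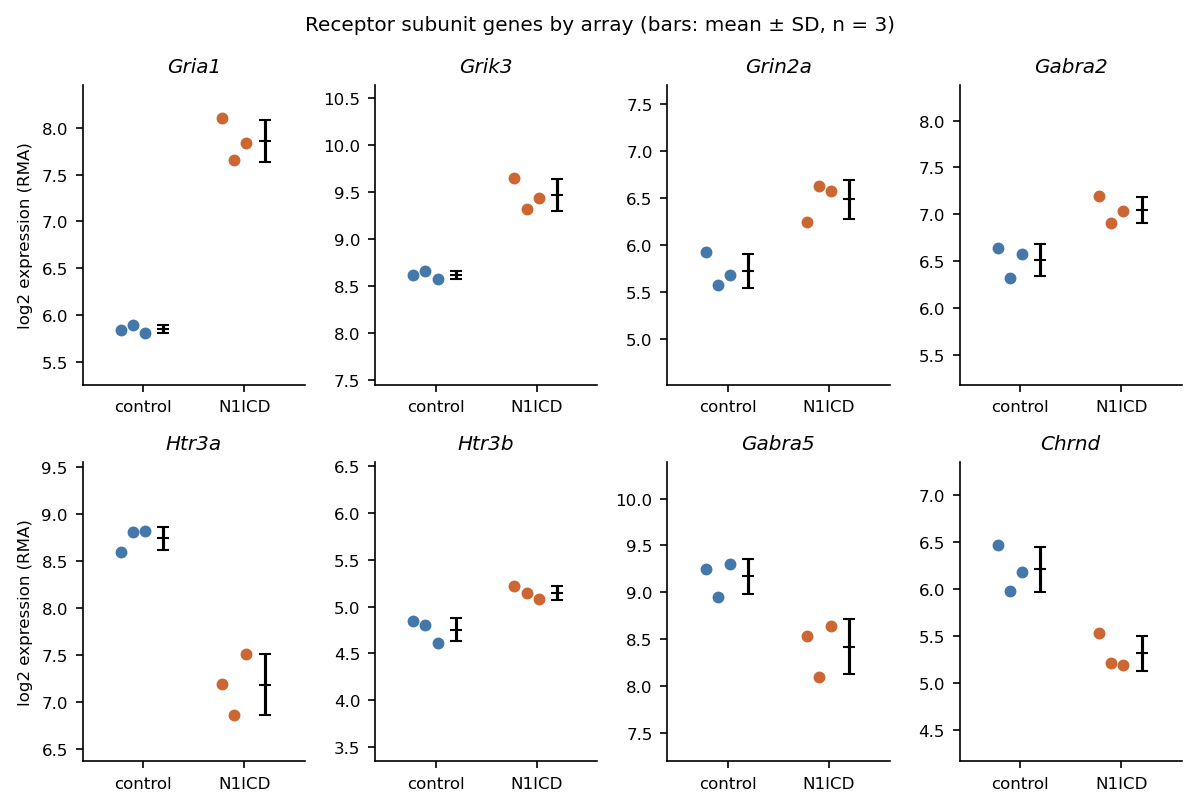
Log2 expression (RMA) of 8 receptor subunit genes on the 3 control and 3 N1ICD arrays, 1 point per array, with the mean and SD of each group as bars; every panel spans the same range on the vertical axis. The arrays of the groups do not overlap in any panel; Gria1 shows the widest gap upward and Htr3a the widest downward, and Htr3b, higher on all N1ICD arrays, did not pass the test (adjusted p = 0.061).

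AMPA receptors are the channels of fast excitatory transmission, and of their 4 genes Gria1 rose while 3 did not pass the test. Gria1, which encodes the subunit GluA1, read 5.84, 5.89 and 5.81 on the control arrays and 8.10, 7.65 and 7.83 on the N1ICD arrays. All N1ICD arrays were high, and the lowest of them lay well above the highest control. The control mean of 5.85 was dim, little above the olfactory level of 5.57 and below the median gene (6.20). Gria1 rose 4.03-fold (log2 2.01 ± 0.13 SE, limma adjusted p = 5.79e-05), the largest change among the 54 genes and rank 103 by size among all genes. Its call was kept without any 1 array, with adjusted p no higher than 0.000889.

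Gria2 encodes GluA2, the subunit that limits the calcium permeability of AMPA channels. It read 10.09, 10.22 and 10.18 in control and 10.26, 10.34 and 10.50 in N1ICD, a difference of 0.20 with a 95% interval of -0.03 to 0.44 that did not pass the test (limma adjusted p = 0.325). The N1ICD arrays lay just above the controls.

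Gria3 and Gria4 encode GluA3 and GluA4. Gria3 read 8.72, 8.28 and 8.61 in control and 8.13, 7.72 and 8.17 in N1ICD, a difference of -0.53 ± 0.16 (limma adjusted p = 0.103). Gria4 read 8.97, 9.07 and 9.29 in control and 8.49, 8.48 and 8.84 in N1ICD, a difference of -0.50 ± 0.14 (adjusted p = 0.0694). For both genes every N1ICD array lay below every control array. Neither passed the test as fitted, but both passed it once genes at or below the olfactory level were left out (adjusted p = 0.0468 and 0.0279) and with an intensity trend and robust variances (0.0415 and 0.0214). Gria4 also passed without N1ICD replicate 3 (adjusted p = 0.0416).

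Kainate receptors modulate release and excitability, and of their 5 genes Grik3 rose while 4 did not pass the test. Grik3, which encodes GluK3, read 8.61, 8.66 and 8.58 in control and 9.65, 9.32 and 9.43 in N1ICD. The controls lay close together and the N1ICD arrays clearly above them. The rise was 1.81-fold (log2 0.85 ± 0.11 SE, limma adjusted p = 0.00288), and adjusted p stayed at 0.0145 or below without any 1 array.

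The other kainate genes showed differences between -0.05 and 0.25. The largest was that of Grik5, which encodes the partner subunit GluK5, at 0.25 ± 0.18 (limma adjusted p = 0.509). It rested on N1ICD replicate 1, which read 9.40 against 8.69 and 8.77 on the other N1ICD arrays, and the difference was 0.03 without that array. Grik2, which encodes the main subunit GluK2, read 9.02, 9.01 and 8.91 in control and 9.06, 8.78 and 8.94 in N1ICD, a difference of -0.05 with a 95% interval of -0.30 to 0.19. Grik1 and Grik4 were likewise uncalled.

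RefSeq promoter windows were at hand for 41 of the 54 genes (46 windows, 250 bases before the annotated start, build GRCm38.p6), among them the called genes Grik3, Gabra2 and Gabra5. They were searched on both strands for TGGGAA, the core of the RBPJ site through which the Notch1 intracellular domain acts, and for CACGTG and CACGCG, bound by HES and HEY repressors. TGGGAA was found in 10 of the 46 windows (21.7%) and in 21.6% of all 32851 windows. CACGTG stood in 1 window (2.17% against 6.02% of all) and CACGCG in 3 (6.52% against 7.62%). Grik3 was the called gene with any match, holding TGGGAA at position -184 and CACGCG, on the opposite strand, at position -216 from the start. The surrounding bases are shown here with the match in capitals, because Grik3 rose and holds both kinds of motif. The Grik3 window lies inside the span that RefSeq gives the gene, whose outermost start is farther upstream. The window of Gabra2, the other rising gene that had one, held none of the motifs and is shown whole, in lower case, for comparison.
Grik3, chr4:125490500-125490529, plus strand: agccggggcaggTGGGAAgcccgcgcggga
Grik3, chr4:125490468-125490497, plus strand: agcggccggagaCGCGTGcaagcccgcccg
Gabra2, chr5:71095850-71096099, minus strand: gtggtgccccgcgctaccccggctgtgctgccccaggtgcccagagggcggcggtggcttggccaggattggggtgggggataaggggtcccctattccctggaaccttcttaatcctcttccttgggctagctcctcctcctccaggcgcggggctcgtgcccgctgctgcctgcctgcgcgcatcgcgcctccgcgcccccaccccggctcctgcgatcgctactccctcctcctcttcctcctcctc
A match is a string of letters in this window and no measurement of binding.

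NMDA receptors need glutamate together with a co-agonist and pass calcium. Of 6 NMDA subunit genes, Grin2a rose and 5 did not pass the test. Grin2a, which encodes GluN2A, the subunit that replaces GluN2B in many maturing neurons, read 5.93, 5.57 and 5.68 in control and 6.25, 6.63 and 6.58 in N1ICD. The groups did not overlap, and the rise was 1.69-fold (log2 0.76 ± 0.14 SE, limma adjusted p = 0.016). It began from a dim level, with a control mean of 5.73 against the olfactory level of 5.57. Leaving out any of control replicates 2 and 3 and N1ICD replicates 2 and 3 ended the call, with an adjusted p of up to 0.0695.

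Grin3a, whose product GluN3A lowers calcium entry, read 8.17, 8.24 and 8.22 in control and 8.09, 7.65 and 7.92 in N1ICD. All N1ICD arrays lay below all controls, and the difference of -0.33 ± 0.13 did not pass the test (limma adjusted p = 0.191). Grin2b and Grin2c were dim on every array, and each had a second, dimmer probe set that went the other way. The brighter and the dimmer probe set differed between groups by -0.16 and 0.09 for Grin2b and by 0.16 and -0.01 for Grin2c, all within 2 SE of 0. Grin2d and Grin3b were uncalled as well.

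**Figure D2:**
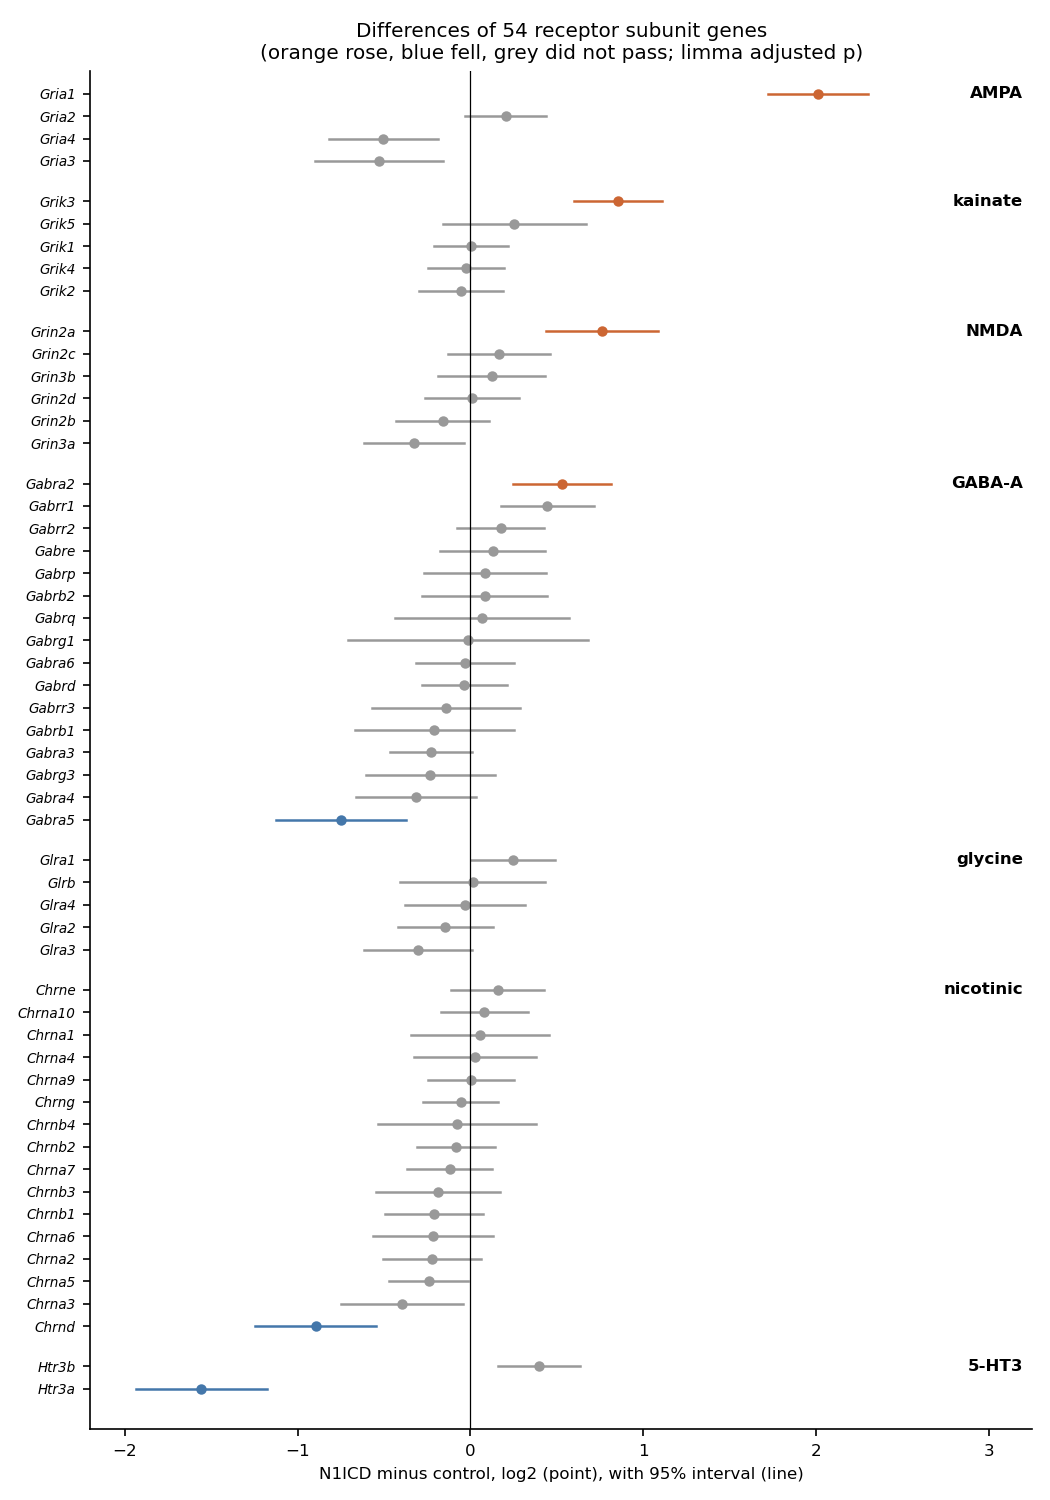
Difference between N1ICD and control in log2 expression (horizontal axis) for each of the 54 receptor subunit genes, grouped by receptor; points are limma estimates and lines their 95% intervals, gene by gene and without correction for the number of genes. Gria1 lies farthest to the right at 2.01 and Htr3a farthest to the left at -1.56; in grey are the 47 genes that did not pass the test, some of them with an interval that excludes 0.

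Of 16 GABA-A genes, 1 rose and 1 fell, and both encode alpha subunits, which shape where on the cell and how strongly GABA acts. Gabra5, whose alpha5 subunit is known from extrasynaptic receptors of the hippocampus, read 9.25, 8.95 and 9.31 in control and 8.53, 8.09 and 8.64 in N1ICD. The groups did not overlap, and Gabra5 fell by 0.75 on the log2 scale (± 0.16 SE, 1.68-fold, limma adjusted p = 0.032). Leaving out any of control replicates 1 and 3 and N1ICD replicates 1 and 2 ended the call, with an adjusted p of up to 0.106.

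Gabra2, whose alpha2 subunit is found in synaptic receptors, read 6.64, 6.32 and 6.58 in control and 7.19, 6.91 and 7.03 in N1ICD. Every N1ICD array was higher than every control, and the rise was 1.45-fold (log2 0.53 ± 0.12 SE, limma adjusted p = 0.0396). This call was the least stable of the 7: it ended whichever of the 6 arrays was left out (adjusted p up to 0.129), with quantile normalization applied again (0.0533) and with equal array medians (0.0516).

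The other 14 GABA-A genes differed by -0.32 to 0.44 and did not pass the test. At the lower end, Gabra4 had a difference of -0.32 ± 0.15 (limma adjusted p = 0.299). At the upper end, Gabrr1, a rho subunit known from the retina, had 0.44 ± 0.12 (adjusted p = 0.0635) from a dim level, with 4.19, 4.40 and 4.48 in control and 4.80, 4.67 and 4.93 in N1ICD. For Gabrr1 the groups did not overlap. Between these lay the alpha subunit genes Gabra3 and Gabra6, the beta genes Gabrb1 and Gabrb2, the gamma genes Gabrg1 and Gabrg3, and Gabrd, Gabre, Gabrp, Gabrq, Gabrr2 and Gabrr3. Of the 16, 5 had a mean above the olfactory level.

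Of the glycine receptor genes, 0 of 5 passed limma's adjusted test, and their differences lay between -0.31 and 0.25. Glrb, the beta subunit that ties the receptor to its anchor gephyrin, was the only one above the olfactory level. It read 8.66, 8.80 and 9.06 in control and 8.46, 8.97 and 9.12 in N1ICD, overlapping groups with a difference of 0.01 and a 95% interval of -0.41 to 0.43. The ligand-binding alpha subunit genes were dim, with Glra3 at -0.31 ± 0.14 (limma adjusted p = 0.264) and Glra1 at 0.25 ± 0.11 (adjusted p = 0.245). Glra2 and Glra4 were uncalled too. At an unadjusted p under 0.05, Glra1 alone would pass.

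Nicotinic receptors include the muscle type, built from Chrna1, Chrnb1, Chrnd and Chrng or Chrne, and the neuronal types. Of 16 nicotinic genes, Chrnd fell and 15 did not pass the test, with differences from -0.39 to 0.16 among those 15. Chrnd, which encodes the delta subunit of the muscle receptor, read 6.47, 5.98 and 6.18 in control and 5.53, 5.21 and 5.19 in N1ICD. All N1ICD arrays were lower, with a mean below the olfactory level of 5.57. Chrnd fell by 0.90 on the log2 scale (± 0.15 SE, 1.86-fold, limma adjusted p = 0.0106), a call lost without N1ICD replicate 2 (adjusted p = 0.0513). None of the other muscle-type genes was called, nor was any of 5 skeletal muscle markers (Myod1, Myog, Ckm, Acta1 and Mylpf), whose mean level was 5.71 to 5.90 in control and 5.85 to 5.98 in N1ICD. Chrna1 (5.10), Chrnb1 (4.50) and Chrne (5.16) had 6-array means below the olfactory level, where a fall may not show, and Chrng (5.87) lay above it. Among the 16 nicotinic genes, 7 had a mean above that level.

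Among the neuronal nicotinic genes, Chrna3, Chrna5 and Chrnb4 lie side by side and encode the subunits of ganglionic receptors. Chrna3 read 6.52, 6.80 and 6.83 in control and 6.17, 6.63 and 6.17 in N1ICD, an overlap with a difference of -0.39 ± 0.15 (limma adjusted p = 0.199), the largest among the uncalled nicotinic genes. Chrna5 had a difference of -0.24 ± 0.10 (adjusted p = 0.226) with groups that did not overlap. Chrna7, the subunit of the homomeric alpha7 channel, differed by -0.12 with a 95% interval of -0.36 to 0.13. Chrnb2, the common beta subunit of brain receptors, differed by -0.08 with an interval of -0.31 to 0.14. Chrna1, Chrna2, Chrna4, Chrna6, Chrna9, Chrna10, Chrnb1, Chrnb3, Chrnb4, Chrne and Chrng complete the class.

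The 5-HT3 receptor is the one serotonin receptor that is an ion channel. Its A subunit forms functional channels alone, while the B subunit needs A. Htr3a read 8.60, 8.81 and 8.82 in control and 7.19, 6.85 and 7.51 in N1ICD, so the highest N1ICD array lay more than 1 log2 unit below the lowest control. Htr3a fell by 1.56 on the log2 scale (± 0.16 SE, 2.95-fold, limma adjusted p = 0.000973), rank 11 among all genes by size of fall. Its call was kept without any 1 array (highest adjusted p = 0.00729).

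Htr3b, which was not called, read 4.84, 4.80 and 4.61 in control and 5.22, 5.14 and 5.08 in N1ICD, and the difference of 0.40 ± 0.10 did not pass the test (limma adjusted p = 0.061), although the groups did not overlap. In RefSeq's gene order Htr3a and Htr3b are neighbours. Whether their differences were unlike was not tested.

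Receptor channels work with auxiliary subunits, chaperones and anchoring proteins. Of 57 such genes listed, 54 were measured, and 9 rose, 4 fell and 41 missed the threshold (24.1% called against 7.10% of all genes). Their median difference was -0.01 as against -0.02 over all genes. Of the 54 partners, 47 had a mean above the olfactory level, where 10.8% of all genes were called. This list and those of transmitter supply and other receptors were chosen with earlier results of these data known. Their shares of calls are therefore descriptions and no test. Sorted by receptor after the values were seen, the proteins that bind AMPA receptors held 6 of the 9 rises: of 17 measured, 6 rose and 1 fell. Gsg1l, an auxiliary subunit that slows recovery from desensitization, read 6.22, 6.56 and 6.36 in control and 8.12, 8.10 and 8.05 in N1ICD. It rose 3.27-fold (log2 1.71 ± 0.11 SE, limma adjusted p = 7.06e-05). The cornichon Cnih2, which promotes export and slows closing of AMPA channels, rose 1.84-fold (0.88 ± 0.14, adjusted p = 0.00704). Both calls were kept without any 1 array.

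The other rises among AMPA receptor partners, named after their values were seen, were smaller. The auxiliary subunit Shisa9 (0.56 ± 0.13, with both group means below the olfactory level), the transmembrane AMPA receptor regulatory proteins Cacng4 (0.52 ± 0.11) and Cacng2 (0.46 ± 0.09), which carry AMPA receptors to synapses, and the scaffold Grip1 (0.52 ± 0.11) rose. The pentraxin Nptx1, which clusters AMPA receptors from outside the cell, fell by 0.49 (± 0.11). Each of these 5 calls was lost without at least 5 of the 6 arrays (highest limma adjusted p from 0.0897 for Cacng4 to 0.132 for Shisa9). That of Shisa9 was also lost with quantile normalization applied again or equal array medians (adjusted p = 0.0774 and 0.0628). At the mean over its probe sets, Cacng2 had a difference of 0.29 (adjusted p = 0.123).

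**Figure D3:**
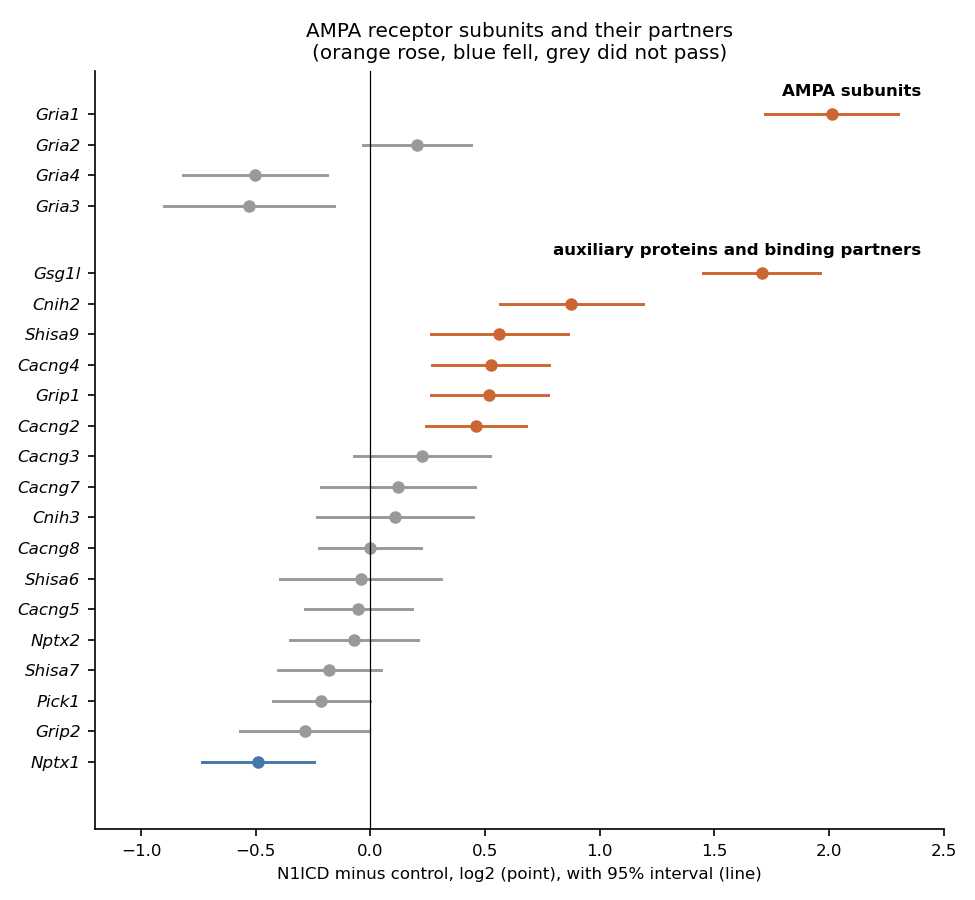
Difference between N1ICD and control in log2 expression (horizontal axis) for the 4 AMPA receptor subunit genes and 17 genes whose products bind AMPA receptors; points are limma estimates, lines 95% intervals gene by gene, orange genes rose, blue fell and grey did not pass the test. Gria1 at 2.01 and Gsg1l at 1.71 lie apart from the rest, and the calls of Shisa9, Cacng4, Grip1, Cacng2 and Nptx1 were lost without most single arrays.

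Partners of the other receptors also went both ways. Iqsec3, which binds gephyrin at inhibitory synapses, rose 3.39-fold (log2 1.76 ± 0.13 SE, limma adjusted p = 0.000161), while gephyrin itself (Gphn, -0.07, 95% interval -0.29 to 0.14) did not pass the test. Of the scaffolds of glutamate synapses, Dlg2 (PSD-93) rose 1.78-fold (0.84 ± 0.12, adjusted p = 0.00454), with the means of both groups (4.66 and 5.49) below the olfactory level, and Homer2 fell by 1.31 (± 0.14, 2.48-fold, adjusted p = 0.00109). The kainate receptor auxiliary subunit Neto1 fell by 0.70 (± 0.16, adjusted p = 0.0357), a call kept only when N1ICD replicate 1 was the array left out (adjusted p up to 0.117 otherwise); Neto1 was named after its values were seen.

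Among 11 partners of nicotinic receptors, Dok7, an adaptor that drives receptor clustering at the neuromuscular junction, fell by 1.51 (± 0.24, 2.85-fold, limma adjusted p = 0.00855). It read 8.58, 8.50 and 8.58 in control and 7.47, 6.41 and 7.25 in N1ICD, with N1ICD replicate 2 lowest. Tmem35a (NACHO), a chaperone of neuronal nicotinic receptors, rose by 0.42 (± 0.10, adjusted p = 0.0497), a call that ended whichever of the 6 arrays was left out (adjusted p up to 0.154). It also ended with quantile normalization applied again (0.0776) or equal array medians (0.0797). The chaperone Ric3 had a difference of -0.19 (95% interval -0.55 to 0.17).

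Of 30 measured genes that make, load, take up or degrade these transmitters or carry chloride, 3 rose, 3 fell and 24 missed the threshold (20.0% called against 7.10% of all genes, median 0.00). Among the 30, 15 had a mean above the olfactory level, where 10.8% of all genes were called. For GABA, the uptake transporter Slc6a11 (GAT-3) read 6.49, 6.11 and 5.74 in control and 8.50, 8.22 and 8.40 in N1ICD. It rose 4.78-fold (log2 2.26 ± 0.18 SE, limma adjusted p = 0.000221). Abat, the transaminase that degrades GABA, read 7.46, 7.42 and 7.60 in control and 8.75, 8.97 and 9.15 in N1ICD, a rise of 2.75-fold (1.46 ± 0.12, adjusted p = 0.000269). Gad1, the enzyme that makes GABA, fell by 0.67 (± 0.15, adjusted p = 0.0335), a call that ended on leaving out any of control replicates 2 and 3 and N1ICD replicates 1 and 2 (adjusted p up to 0.115). The N1ICD mean of Gad1 (5.41) lay below the olfactory level of 5.57.

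For serotonin, Tph1, the enzyme of peripheral serotonin synthesis, fell 2.14-fold (SE 0.16 on the log2 scale, limma adjusted p = 0.0044). It read 6.92, 6.98 and 6.79 in control and 5.46, 5.86 and 6.07 in N1ICD, and its call was kept without any 1 array. The glutamate transporter Slc1a2 (GLT-1) rose 1.63-fold (0.71 ± 0.14, adjusted p = 0.0185; 0.0719 without control replicate 2). Its control mean of 5.58 lay at about the olfactory level of 5.57. The glycine transporter Slc6a5 fell by 0.55 (± 0.12, adjusted p = 0.0333), a call kept only when N1ICD replicate 1 was the array left out (adjusted p up to 0.121 otherwise).

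Of 21 genes of other receptors, 3 rose, 2 fell and 16 missed the threshold (23.8% called against 7.10% of all genes, median 0.09). They encode ATP-gated and acid-sensing channels, the delta glutamate receptor of Grid1, and metabotropic GABA and glutamate receptors. Among the 21, 15 had a mean above the olfactory level, where 10.8% of all genes were called. Gabbr2, the subunit of the metabotropic GABA-B receptor that couples to G proteins, read 7.80, 7.62 and 7.68 in control and 10.90, 10.62 and 10.57 in N1ICD. Its rise of 7.98-fold (log2 3.00 ± 0.12 SE, limma adjusted p = 3.78e-06) was larger than that of any of the 54 channel subunit genes. The acid-sensing channel Asic2 rose 2.80-fold (1.49 ± 0.11, adjusted p = 0.000132) and the ATP-gated channel P2rx4 rose 2.38-fold (1.25 ± 0.10, adjusted p = 0.00017). The metabotropic glutamate receptor genes Grm3 (-0.86 ± 0.19, adjusted p = 0.0315) and Grm2 (-0.59 ± 0.11, adjusted p = 0.0139) fell. The call of Grm3 ended on leaving out any of control replicates 1 and 3 and N1ICD replicates 1 and 2 (adjusted p up to 0.0996). Its N1ICD mean of 5.39 lay below the olfactory level of 5.57.

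**Figure D4:**
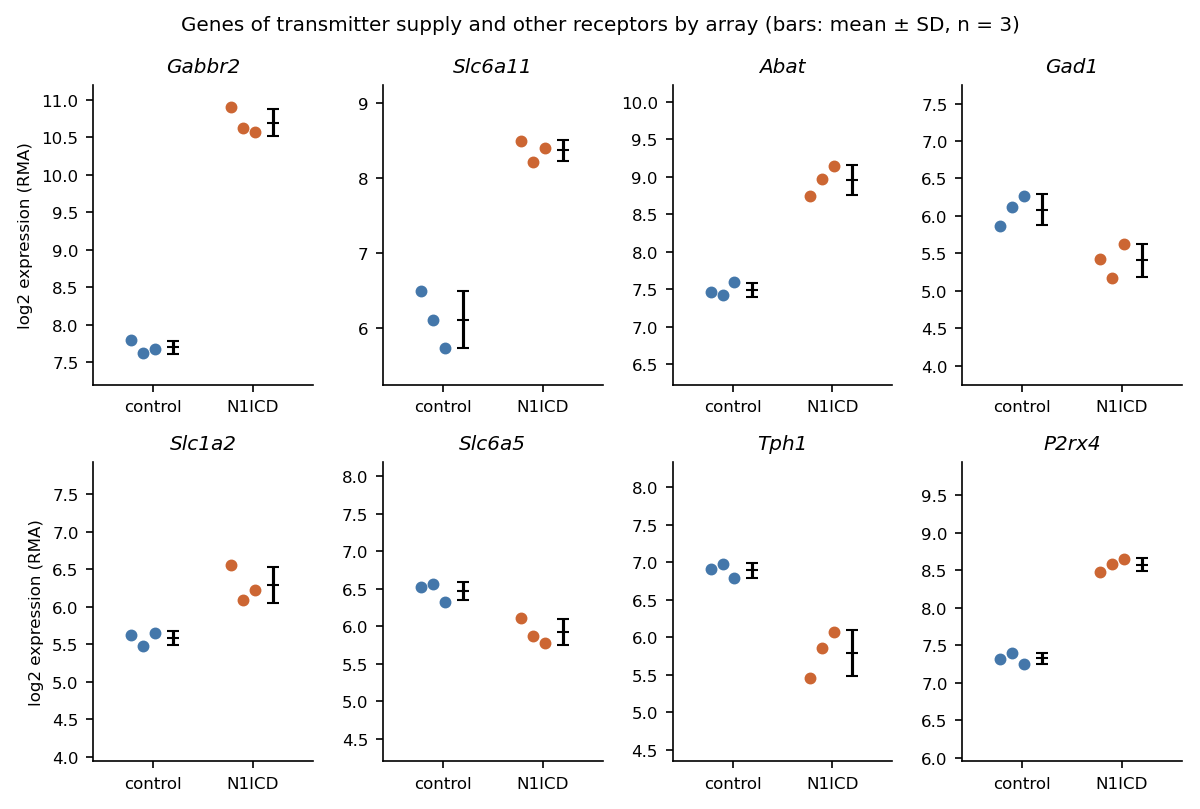
Log2 expression (RMA) of 8 genes of transmitter supply and of other receptors on the 3 control and 3 N1ICD arrays, 1 point per array, with the mean and SD of each group as bars and the same span on every vertical axis. Gabbr2, Slc6a11, Abat, Slc1a2 and P2rx4 lie higher and Gad1, Slc6a5 and Tph1 lower on all N1ICD arrays; the calls of Slc1a2, Gad1 and Slc6a5 were lost without 1 or more single arrays.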

How the data were processed

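Total RNA from 6 KP1 samples was hybridised to Mouse Gene 2.0 ST arrays (Affymetrix). The authors deposited log2 values per probe set after RMA (background correction, quantile normalization and summary), per the submitters' processing notes; its version and the genome build are not given in the sources used here. RMA compresses changes of dim probe sets. Of 41345 probe sets, 23521 carry 1 symbol, 1814 carry several and 16010 have no gene listed in the annotation table used here; the brightest probe set with 1 symbol stood for each of 22180 genes. No filter was applied. The groups were compared by a two-sided moderated test (eBayes after lmFit, limma version 3.58.1, R version 4.3.3), and p-values were adjusted over the 22180 genes by Benjamini-Hochberg, called under 0.05; the fit was tested on simulated data. Values after ± are SE. Groups came from the labels. Named are all called subunit genes, the largest uncalled difference of each class, and up to 6 called genes of each other list by size of difference; Gad1, Gphn, Ric3 and Tmem35a were named whatever their result, and the remaining named partners only once their values were known. The genes and lists were chosen with earlier results of these data known. Of the listed partner, supply, other-receptor and neuroendocrine genes, 9 were not analysed here, because no probe set was taken for them. Figures used matplotlib 3.10.9. One promoter motif search is not reported here.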

Additional observations from a re-analysis of the deposited data

How the results depend on the processing

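Of the 7 called subunit genes, Gria1, Grik3 and Htr3a kept direction and call under every alternative run, and all 7 kept their direction wherever they were tested. Quantile normalization again, equal array medians and the mean over probe sets left the numbers of rises and falls within 1.5 times the reported ones. With dim genes left out at the olfactory level, with an intensity trend and robust variances, or with the replicate block, 5 subunit genes fell instead of 3, Gria3 and Gria4 being added, while calls over all genes tested came to 16.9%, 10.3% and 6.84% against 7.10%. With genes below the median gene left out, 20 of the 54 were tested. Gria1 was among them only through its N1ICD arrays, as its control mean of 5.85 lay below the median gene (6.20). With single arrays left out, rises numbered 2 to 3, falls 1 to 4 and calls over all genes 823 to 1230. The deviations of same-numbered control and N1ICD arrays from their group means correlated at 0.23, 0.01 and 0.20. Those of differently numbered arrays correlated at -0.23 to 0.06, so the pairs numbered 1 and 3 had the highest values. The labels do not say that a number marks a shared culture, and the main fit had no block. Whether the numbers pair the arrays was not tested. With the replicate block Grin2a (adjusted p = 0.0548), Cacng2 (0.050006), Nptx1 (0.061) and Tmem35a (0.0814) did not pass, and Gria3 (adjusted p = 0.0277) and Gria4 (0.0308) passed. Glrb, near 0, turned to -0.042 with equal array medians and ranged from -0.12 to 0.21 with arrays left out; Grik2 ranged from -0.12 to 0.019. The causes were not tested. Background was not measured, so for the 28 dimmer genes larger changes may not show.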
